A study of Mus musculus with 7 samples.

Results

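The 10 genes described here encode transcription factors and a coactivator of the cardiac lineage, namely Gata4, Gata6, Nkx2-5, Tbx20, Mef2a, Mef2c, Mef2d, Hand2, Srf and Myocd. They were chosen by name, and every probe set that the platform annotation assigns to one of them alone was used, which gave 30 probe sets of the 45037 on the array and 10 of 18193 annotated genes. The arrays compared mdx HRTΔIKKβ hearts with mdx IKKβf/f hearts to ask how loss of NF-κB signalling in cardiomyocytes changes expression in the dystrophic heart. The 4 mdx HRTΔIKKβ mice carried Myh6-cre, a recombinase gene driven by a cardiomyocyte promoter, together with deleted IKKβ, a kinase upstream of NF-κB. The 3 mdx IKKβf/f mice carried the floxed gene with no Cre listed in the labels, and the study describes such controls as littermates. All 7 mice were 7 months old and all were mdx, a dystrophin-deficient strain used as a model of Duchenne muscular dystrophy. No heart with normal dystrophin and none with Cre but without the floxed gene was among the 7 analysed here, so an effect of Cre itself cannot be told apart from that of the deletion. RNA came from whole hearts, in which only cardiomyocytes carry the deletion and in which fewer cells of a type and less RNA per cell cannot be told apart.

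These factors act as a network. GATA, NK2, T-box and HAND proteins bind their own DNA sites and also bind each other, MEF2 proteins and SRF share the MADS domain, and myocardin is a coactivator that binds SRF rather than DNA. Together they switch on contractile and natriuretic peptide genes in the embryonic heart, and most stay expressed in adult cardiomyocytes, where their activity is largely set by cofactors, histone deacetylases and phosphorylation.

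As a whole the factors differed little between the genotypes, and only Hand2 and Mef2c had brightest probe sets whose groups did not overlap. Hand2 was higher by 0.61 and Mef2c lower by 0.29 on the log2 scale in mdx HRTΔIKKβ hearts. Neither passed the test, because in limma's fit over all probe sets 0 of the 10 genes and 0 of the 30 probe sets reached an adjusted p of 0.05. The background was the same, with 0% of all genes and 0% of all probe sets called. At an unadjusted limma p of 0.05, 2 of the 10 genes were past the threshold, against 6.2% of all genes. The same threshold held 8 of the 30 probe sets (3 of Hand2, 4 of Mef2c and 1 of Tbx20), against 6.07% of all probe sets. Several probe sets of a gene read the same RNA, so these 8 are 3 genes and not 8 independent observations. Groups did not overlap in 2 of the 10 genes, against 5.67% of all genes, and in 8 of the 30 probe sets, against 5.44% of all probe sets. The probe sets with groups apart were 4 of Mef2c, 2 of Hand2, 1 of Tbx20 and 1 of Mef2d, so these too are not 8 independent observations. Only Hand2 reached a 1.5-fold difference, a size that 1.45% of all genes reached in either direction. With each gene read by its brightest probe set, 6 genes were higher and 4 lower on average in mdx HRTΔIKKβ hearts, and the median difference was 0.08 on the log2 scale, against -0.01 over all genes.

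**Figure D1:**
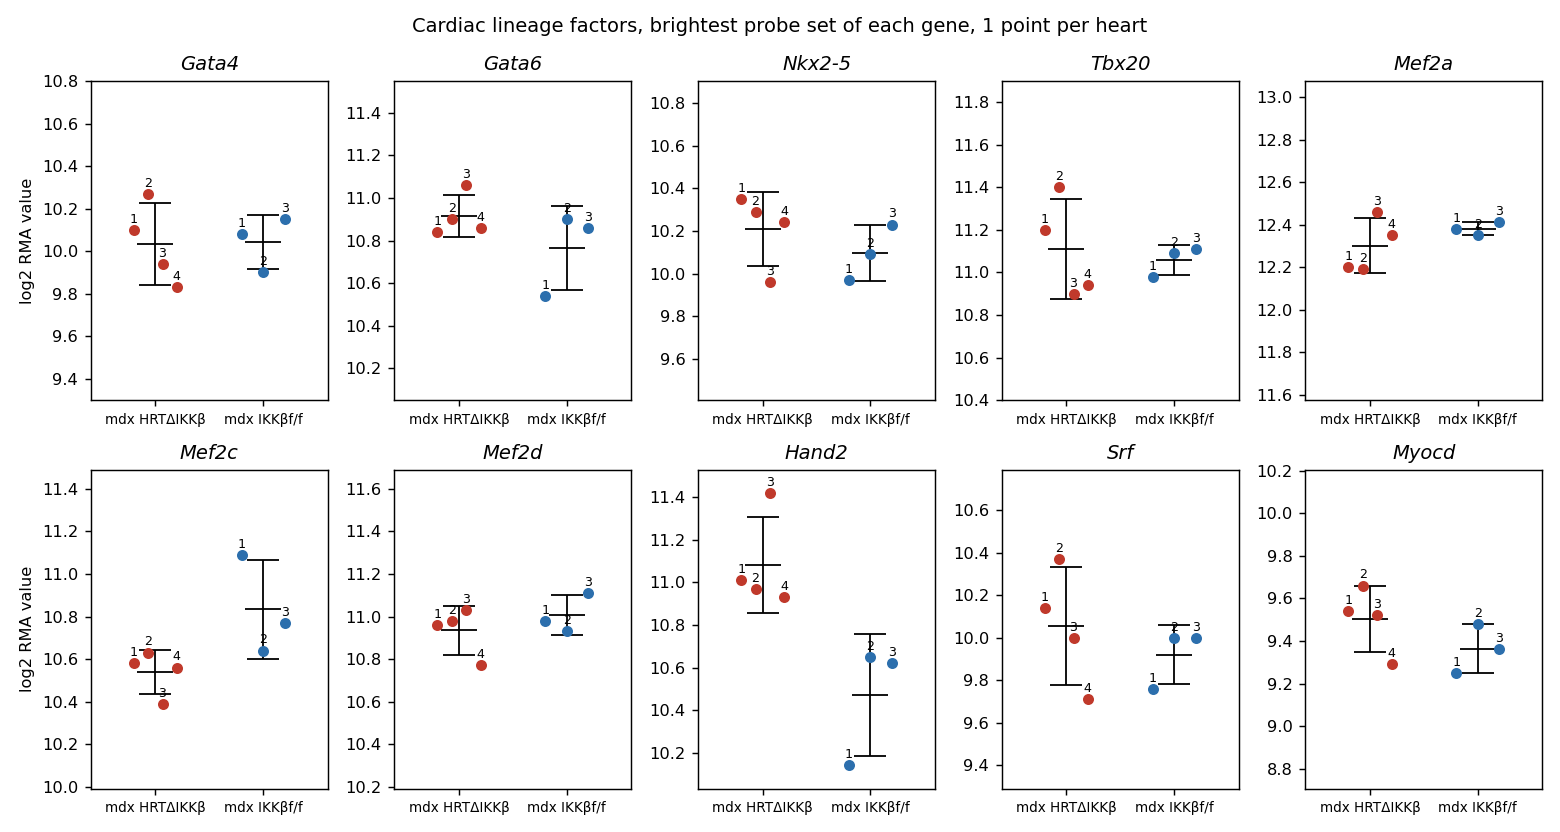
Log2 RMA value of the brightest probe set of each of the 10 factors in each heart, with mdx HRTΔIKKβ hearts on the left and mdx IKKβf/f hearts on the right of each panel. The groups are apart for Hand2, with 10.93 to 11.42 in mdx HRTΔIKKβ hearts and 10.14 to 10.65 in mdx IKKβf/f hearts, and for Mef2c, and overlap for the other 8 genes.

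The deleted gene and the makeup of the samples were examined before the factors. Ikbkb, which encodes IKKβ, was read by 5 probe sets, of which the brightest had 8.44, 8.86, 8.75 and 8.82 in mdx HRTΔIKKβ hearts and 8.82, 9.03 and 8.86 in mdx IKKβf/f hearts. The groups overlapped in all 5 probe sets, and the brightest was lower by -0.18 ± 0.11 (SE, limma adjusted p = 0.801). Where these probe sets lie relative to the deleted part of the gene was not used here, and IKKβ RNA of other heart cells is read too, so Ikbkb is no check of the labels. Of the 15 ventricular cardiomyocyte markers, Hey2 was the 1 whose mean lay in the dimmest 25% of probe sets. Their list score, which is the mean log2 value of the genes after each was centred on its mean over the 7 hearts, ranged from -0.07 to 0.06 in mdx HRTΔIKKβ hearts and from -0.02 to 0.04 in mdx IKKβf/f hearts. Several hearts stood apart in markers of other tissues. The score of 18 skeletal muscle markers was -0.94 to -0.02 in mdx HRTΔIKKβ hearts, against 3.04 in mdx IKKβf/f replicate 1, -0.75 in replicate 2 and 0.46 in replicate 3, and the mdx HRTΔIKKβ mean was the lower for all 18, with 0 past an unadjusted p of 0.05. The score of 12 lung and airway markers was 1.80 in mdx HRTΔIKKβ replicate 2 and 0.71 in replicate 4. It was -0.14 in replicate 1 and -0.67 in replicate 3, the last inside the mdx IKKβf/f range of -0.71 to -0.34. All 12 had the higher mean in mdx HRTΔIKKβ hearts, with 0 past that p. The atrial score was lowest in mdx IKKβf/f replicate 2, at -1.27, and the smooth muscle and pericyte score was highest in mdx IKKβf/f replicate 3, at 0.57.

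Hand2 is a basic helix-loop-helix factor required for the right ventricle in the mouse embryo, and is also used in sympathetic neurons. Its brightest probe set had 11.01, 10.97, 11.42 and 10.93 in mdx HRTΔIKKβ hearts, against 10.14, 10.65 and 10.62 in mdx IKKβf/f hearts. Every mdx HRTΔIKKβ heart was above every mdx IKKβf/f heart, with replicate 3 of mdx HRTΔIKKβ the highest and replicate 1 of mdx IKKβf/f the lowest by a wide margin. The difference was 0.61 ± 0.16 (SE, 95% interval 0.23 to 0.99), or 1.53-fold, with an unadjusted p of 0.00608 and an adjusted p of 0.79 in limma. The second probe set had 7.49, 7.43, 7.47 and 7.58 in mdx HRTΔIKKβ hearts, against 6.76, 7.19 and 7.09 in mdx IKKβf/f hearts. These values were also apart, the mdx HRTΔIKKβ hearts lay close together, and replicate 1 of mdx IKKβf/f was again the lowest. The difference was 0.48 ± 0.10 (SE), with an unadjusted p of 0.00203 that ranked 113 among all probe sets and an adjusted p of 0.789 in limma.

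The dimmest Hand2 probe set had 6.33, 6.30, 6.68 and 6.37 in mdx HRTΔIKKβ hearts, against 5.86, 6.30 and 6.07 in mdx IKKβf/f hearts. Its groups met at 6.30, where replicate 2 of both genotypes lay, and the difference was 0.34 ± 0.13 (SE, limma adjusted p = 0.796). The mean of all 3 probe sets was thus higher in mdx HRTΔIKKβ hearts, by 0.34 to 0.61. The size depended on 1 control heart. Without mdx IKKβf/f replicate 1 the differences of the 3 probe sets were 0.45, 0.35 and 0.24, and the unadjusted p of the dimmest became 0.111. In that heart the skeletal muscle markers were high, and their part in the Hand2 difference was not tested. The brightest and second probe sets stayed at an unadjusted p of 0.0196 or less whichever heart was left out.

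Markers of some cells that can express Hand2 were read beside it, and endothelial, endocardial and fibroblast markers are given further on. Of 12 mesothelial and epicardial markers, 11 were on average higher in mdx HRTΔIKKβ hearts, with 10 of these past an unadjusted p of 0.05, where the background was 3.25% of all genes past it and higher and 2.95% past it and lower. Their score ranged from -0.17 to 0.87 in mdx HRTΔIKKβ hearts and from -0.51 to -0.39 in mdx IKKβf/f hearts. The marker Msln, mesothelin, had 7.45, 7.88, 6.82 and 7.79 in mdx HRTΔIKKβ hearts, against 6.53, 6.43 and 6.32 in mdx IKKβf/f hearts. Replicate 3 of mdx HRTΔIKKβ had the lowest mesothelial score of its group, at -0.17. In that heart the brightest and dimmest Hand2 probe sets had the highest values of the group, at 11.42 and 6.68. Its second Hand2 probe set was at 7.47, inside the group's range of 7.43 to 7.58. The part of the mesothelial markers in the Hand2 difference was not tested. Sympathetic neuron and glia markers, 9 on the array, had scores of -0.08 to 0.12 in mdx HRTΔIKKβ hearts and -0.04 to 0.01 in mdx IKKβf/f hearts, and none of them was past an unadjusted p of 0.05. Gap43 and Phox2a were among the dimmest 25% of probe sets by their mean.

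The RefSeq promoter of Hand2 is shown because Hand2 had the largest difference and GATA factors are among the genes described. The first 100 bases of the window, which begins 250 bases before the start site (GRCm38.p6, chr8:57320733-57320832, plus strand), held both of its matches to GATAA on either strand, which are in capitals.

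Hand2: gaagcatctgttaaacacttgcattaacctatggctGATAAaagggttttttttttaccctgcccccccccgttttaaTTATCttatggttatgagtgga

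The first match lies at -214 and the second, on the other strand, at -172. RefSeq promoters, from 250 bases before to 50 after the start, were matched for 7 of the 10 genes (9 promoters), and GATAA occurred in those of Hand2 and Mef2c. It is a short motif, present in 25.4% of 32851 promoters. No match of 1 motif searched in the members' promoters overlapped a match of another.

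**Figure D2:**
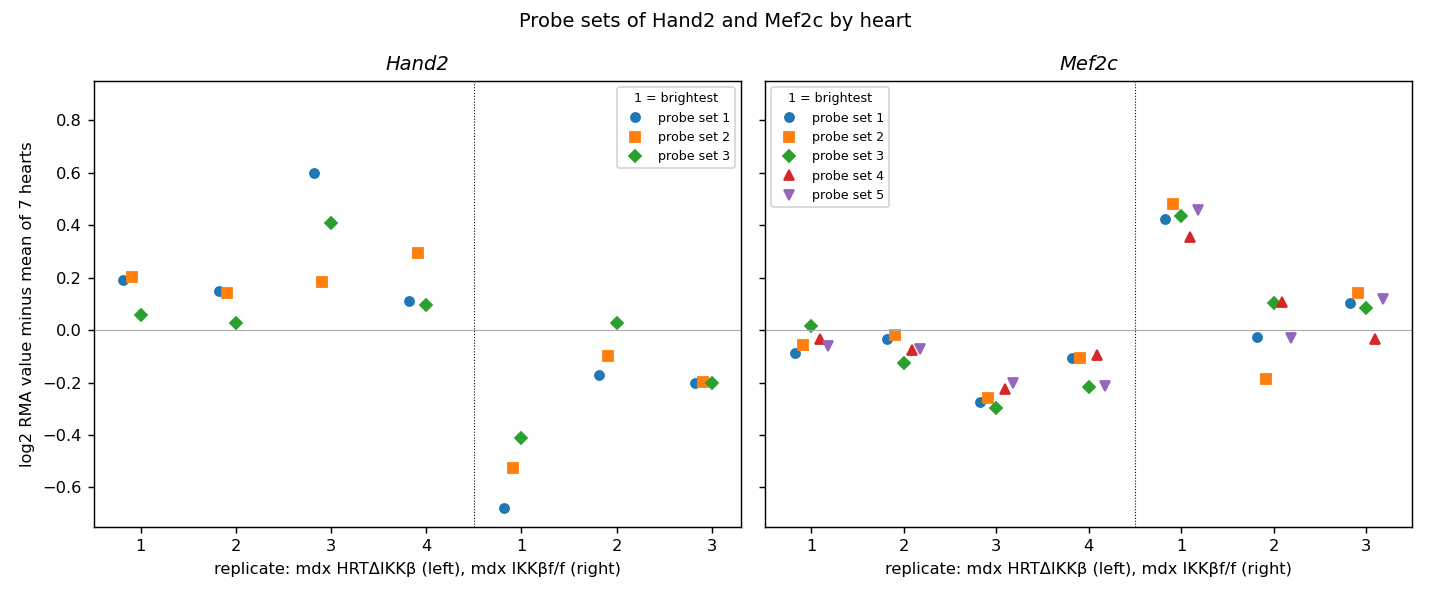
Log2 RMA value minus the mean over the 7 hearts for each probe set of Hand2 (left panel) and Mef2c (right panel), by heart, with mdx HRTΔIKKβ hearts left of the dotted line and mdx IKKβf/f hearts right of it. Replicate 1 of mdx IKKβf/f is the lowest heart in all 3 Hand2 probe sets and the highest in all 5 Mef2c probe sets.

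Mef2c, Mef2a and Mef2d encode the MEF2 proteins of the heart, which bind an A/T-rich site in muscle genes and are held inactive by class IIa histone deacetylases. Mef2c is the member needed for the embryonic heart tube to loop. Its brightest probe set had 10.58, 10.63, 10.39 and 10.56 in mdx HRTΔIKKβ hearts, against 11.09, 10.64 and 10.77 in mdx IKKβf/f hearts. The groups were apart by a narrow gap, since replicate 2 of mdx HRTΔIKKβ and replicate 2 of mdx IKKβf/f differed in the second decimal only. The difference was -0.29 ± 0.11 (SE, 95% interval -0.55 to -0.03), with an unadjusted p of 0.0334 and an adjusted p of 0.796 in limma.

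The second Mef2c probe set had 10.17, 10.21, 9.97 and 10.12 in mdx HRTΔIKKβ hearts, against 10.71, 10.04 and 10.37 in mdx IKKβf/f hearts. Here replicate 2 of mdx IKKβf/f lay within the mdx HRTΔIKKβ range, and the difference of -0.25 had an unadjusted limma p of 0.126. The third probe set had 10.04, 9.90, 9.73 and 9.81 in mdx HRTΔIKKβ hearts, against 10.46, 10.13 and 10.11 in mdx IKKβf/f hearts. These groups were apart, with the smallest p of the gene (difference -0.37 ± 0.11, SE, unadjusted p = 0.0112, adjusted p = 0.796, limma).

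The fourth Mef2c probe set had 9.606, 9.565, 9.423 and 9.548 in mdx HRTΔIKKβ hearts, against 10.003, 9.747 and 9.614 in mdx IKKβf/f hearts. Its groups were separated by a gap at the third decimal, between replicate 1 of mdx HRTΔIKKβ and replicate 3 of mdx IKKβf/f. The fifth had 9.35, 9.34, 9.21 and 9.20 in mdx HRTΔIKKβ hearts, against 9.87, 9.38 and 9.53 in mdx IKKβf/f hearts. Over the 5 probe sets the differences ran from -0.37 to -0.25. The sizes depended on mdx IKKβf/f replicate 1, which was the highest heart in each. Without it the brightest probe set was lower by 0.16 with an unadjusted p of 0.105, the 5 differences ran from -0.25 to -0.08, and 1 of the 5, the third, was at an unadjusted p under 0.05 (0.0351). Mef2c is also expressed in skeletal muscle, whose markers were high in that heart, and their part in the difference was not tested. Over all members, 4 of the 30 probe sets were at an unadjusted p under 0.05 without that heart. The share of all probe sets past it in that fit is not given here. The unadjusted p of the brightest probe set was also above 0.05 without mdx IKKβf/f replicate 3 or without mdx HRTΔIKKβ replicate 1, 3 or 4, where its difference ran from -0.32 to -0.24.

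Mef2a, the most abundant MEF2 form of adult mouse heart, was read by 6 probe sets. The brightest had 12.20, 12.19, 12.46 and 12.35 in mdx HRTΔIKKβ hearts, against 12.38, 12.35 and 12.41 in mdx IKKβf/f hearts. The mdx IKKβf/f values lay inside the mdx HRTΔIKKβ range, and the difference was -0.08 ± 0.08 (SE, limma adjusted p = 0.839). The 4 brighter probe sets had differences of -0.17 to -0.08 and the other 2 of 0.09 and 0.15, and none reached an unadjusted p of 0.05.

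Mef2d, the MEF2 form linked to stress-dependent remodelling in mice, had 10.96, 10.98, 11.03 and 10.77 in mdx HRTΔIKKβ hearts, against 10.98, 10.93 and 11.11 in mdx IKKβf/f hearts. Its difference was -0.07 ± 0.08 (SE, limma adjusted p = 0.862), and the groups overlapped. The second of its 3 probe sets had 9.92, 9.96, 9.87 and 9.87 in mdx HRTΔIKKβ hearts, against 9.69, 9.77 and 9.86 in mdx IKKβf/f hearts. These were apart by a small margin in the opposite direction, at 0.13 ± 0.06 (SE, limma adjusted p = 0.796). The probe sets of Mef2a and of Mef2d thus gave no single direction, whereas the 5 of Mef2c did.

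The study concerns NF-κB, so the Mef2d promoter, the only 1 of the 9 with a match to the NF-κB consensus, is shown from -100 to -41 (GRCm38.p6, chr3:88142272-88142331, plus strand) with the match at -73 in capitals.

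Mef2d: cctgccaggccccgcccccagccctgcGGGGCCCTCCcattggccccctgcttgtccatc

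The consensus occurred in 8.46% of all promoters of this length. A MEF2 site was found in the promoter of Mef2a, at -2, and in 3.19% of all promoters.

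**Figure D3:**
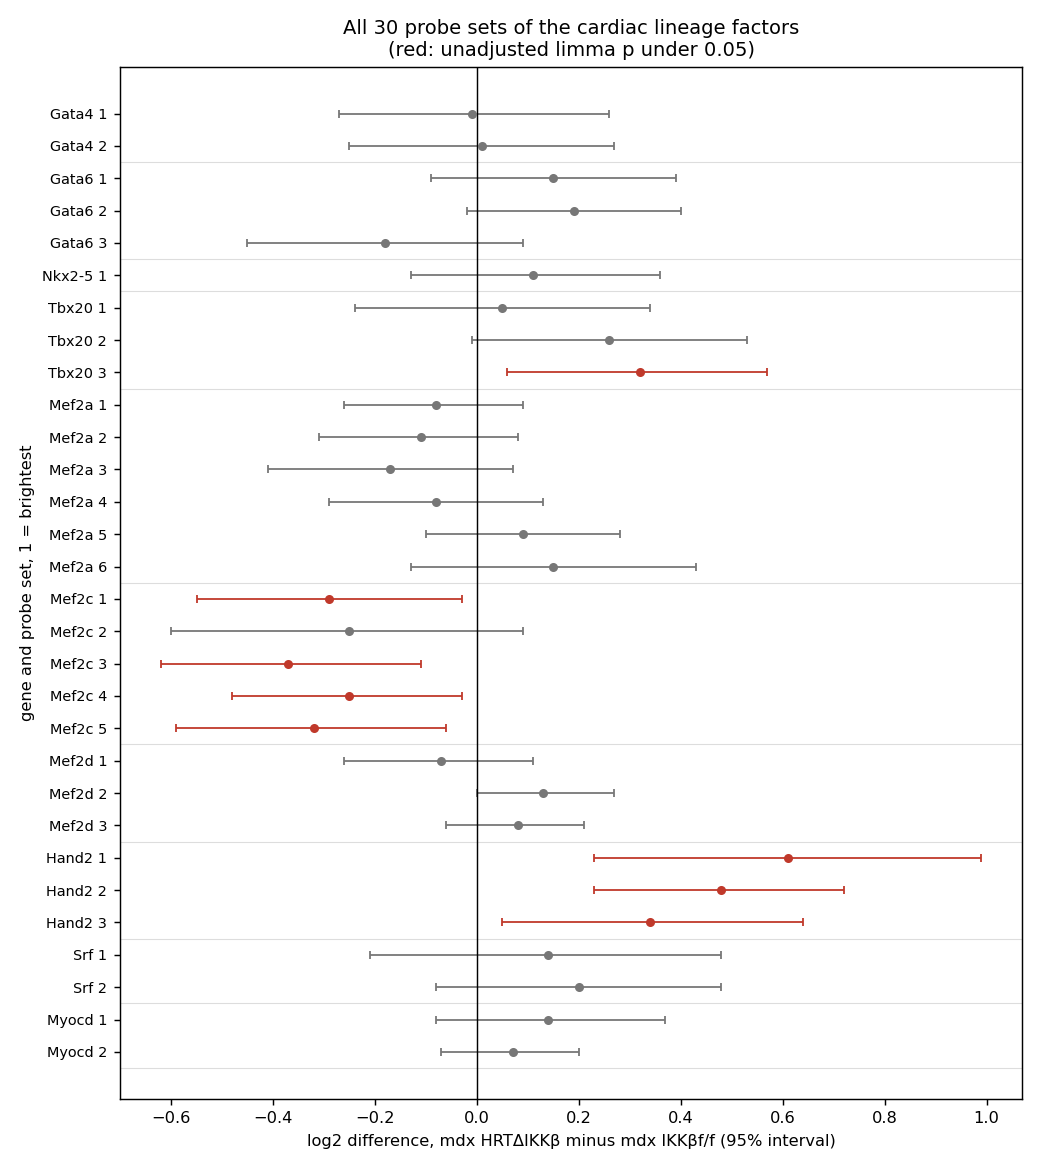
Difference in log2 RMA value, mdx HRTΔIKKβ minus mdx IKKβf/f, with its 95% limma interval for each of the 30 probe sets of the 10 factors. Intervals exclude 0 for all 3 probe sets of Hand2, 4 of 5 of Mef2c and 1 of 3 of Tbx20, before adjustment over all probe sets.

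Gata4 and Gata6 encode zinc finger factors that act upstream of many cardiac genes and that can replace each other in part. Gata4 had 10.10, 10.27, 9.94 and 9.83 in mdx HRTΔIKKβ hearts, against 10.08, 9.90 and 10.15 in mdx IKKβf/f hearts. The mdx IKKβf/f values fell within the mdx HRTΔIKKβ range. The difference was -0.01 ± 0.11 (SE, 95% interval -0.27 to 0.26, limma adjusted p = 0.991), and the second probe set gave 0.01 ± 0.11.

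Gata6 had 10.84, 10.90, 11.06 and 10.86 in mdx HRTΔIKKβ hearts, against 10.54, 10.90 and 10.86 in mdx IKKβf/f hearts. Apart from a low value in mdx IKKβf/f replicate 1 and a high value in mdx HRTΔIKKβ replicate 3, the hearts were alike. The difference was 0.15 ± 0.10 (SE, limma adjusted p = 0.811). Without mdx IKKβf/f replicate 1 it was 0.04. The second probe set had a difference of 0.19 ± 0.09 and the third of -0.18 ± 0.12 (SE), so the 3 probe sets did not point 1 way.

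Nkx2-5, the homeobox factor that marks cardiac progenitors and partners GATA4, was read by 1 probe set. It had 10.35, 10.29, 9.96 and 10.24 in mdx HRTΔIKKβ hearts, against 9.97, 10.09 and 10.23 in mdx IKKβf/f hearts. The groups overlapped, with a difference of 0.11 ± 0.11 (SE, 95% interval -0.13 to 0.36, limma adjusted p = 0.842).

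Tbx20, a T-box factor needed for adult cardiomyocyte function in mice, was read by 3 probe sets. The brightest had 11.20, 11.40, 10.90 and 10.94 in mdx HRTΔIKKβ hearts, against 10.98, 11.09 and 11.11 in mdx IKKβf/f hearts. The mdx HRTΔIKKβ hearts lay on both sides of the mdx IKKβf/f hearts, and the difference was 0.05 ± 0.12 (SE, limma adjusted p = 0.942). The dimmest had 6.72, 6.85, 6.73 and 7.09 in mdx HRTΔIKKβ hearts, against 6.64, 6.36 and 6.58 in mdx IKKβf/f hearts. These were apart, with a difference of 0.32 ± 0.11 (SE, unadjusted p = 0.0215, adjusted p = 0.796, limma). The remaining probe set, at 0.26 ± 0.12 (SE), overlapped between the groups. The larger differences of Tbx20 thus came from the 2 dimmer probe sets and not from the brightest. Leaving out mdx IKKβf/f replicate 2 gave 0.23 for the dimmest, and its unadjusted p ranged from 0.0192 to 0.0854 over the 7 hearts left out in turn.

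Srf and Myocd form the DNA-binding and the coactivating side of 1 complex, which binds the CArG box of contractile and growth-response genes. Srf had 10.136, 10.369, 9.997 and 9.710 in mdx HRTΔIKKβ hearts, against 9.760, 9.997 and 9.997 in mdx IKKβf/f hearts. Replicate 2 of mdx HRTΔIKKβ was the highest and replicate 4 of mdx HRTΔIKKβ the lowest of the 7 hearts. The difference was 0.14 ± 0.15 (SE, limma adjusted p = 0.861), and the second probe set gave 0.20 ± 0.12.

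Myocd had 9.54, 9.66, 9.52 and 9.29 in mdx HRTΔIKKβ hearts, against 9.25, 9.48 and 9.36 in mdx IKKβf/f hearts. Of the mdx HRTΔIKKβ hearts 3 lay above all mdx IKKβf/f hearts and replicate 4 lay within their range. The difference was 0.14 ± 0.10 (SE, limma adjusted p = 0.813), and the second probe set gave 0.07 ± 0.06.

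The Srf promoter is shown because its own product binds the CArG box, and it was the only 1 of the 9 promoters with a match, which 1.63% of all promoters held. The stretch from -100 to -41 (GRCm38.p6, chr17:46556203-46556262, minus strand, written 5′ to 3′ along the gene) held 2 CArG boxes, at -82 and -62, in capitals.

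Srf: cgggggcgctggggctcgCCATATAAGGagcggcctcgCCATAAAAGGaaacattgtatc

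Across the 7 hearts the highest value of a factor fell most often in mdx HRTΔIKKβ replicate 2, for Gata4, Tbx20, Srf and Myocd, and in mdx HRTΔIKKβ replicate 3, for Gata6, Mef2a and Hand2. The lowest value was in mdx HRTΔIKKβ replicate 3 for Nkx2-5, Tbx20 and Mef2c, in mdx HRTΔIKKβ replicate 4 for Gata4, Mef2d and Srf, and in mdx IKKβf/f replicate 1 for Gata6, Hand2 and Myocd. So the factors did not move as 1 block from heart to heart. Their score over the 10 genes was 0.06, 0.13, 0.03 and -0.09 in mdx HRTΔIKKβ hearts and -0.12, -0.03 and 0.03 in mdx IKKβf/f hearts, and the groups overlapped. The range over the 7 hearts was widest for Hand2, at 1.29 on the log2 scale, and for the other 9 genes ran from 0.26 (Mef2a) to 0.70 (Mef2c).

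Genes that work with these factors were then read from the same fit, each by its brightest probe set, and 0 of them reached an adjusted p of 0.05. Over all genes, 6.2% were past an unadjusted limma p of 0.05, with 3.25% higher and 2.95% lower. Of 33 other cardiac lineage factors, 16 were on average higher and 17 lower in mdx HRTΔIKKβ hearts, with a median difference of -0.02. Past an unadjusted p of 0.05 there were 3 on the higher and 2 on the lower side. Sox4, an HMG-box factor of the outflow tract, had 10.20, 10.04, 9.54 and 9.50 in mdx HRTΔIKKβ hearts, against 10.96, 10.12 and 10.62 in mdx IKKβf/f hearts. Replicate 1 of mdx HRTΔIKKβ lay above replicate 2 of mdx IKKβf/f, so the groups overlapped, and the difference was -0.75 ± 0.24 (SE, limma adjusted p = 0.796).

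The other 4 had smaller differences. They were 0.21 for Nr2f2, a nuclear receptor of atrial identity, 0.23 for Isl1, a marker of second heart field progenitors at the 27.4th percentile of brightness (5.47 to 5.59 in mdx HRTΔIKKβ hearts and 5.20 to 5.47 in mdx IKKβf/f hearts), 0.15 for Tbx5, the T-box partner of Nkx2-5 and Gata4, and -0.33 for Tbx1, a second heart field T-box factor. Groups overlapped in each of these. Tbx5 and Nr2f2 are also on the list of atrial markers, of which all 11 on the array were on average higher in mdx HRTΔIKKβ hearts, with 3 past an unadjusted p of 0.05. The atrial score ranged from -0.18 to 0.80 in mdx HRTΔIKKβ hearts and from -1.27 to 0.26 in mdx IKKβf/f hearts, and the part of atrial tissue in these differences was not tested. Hand1, the left ventricular relative of Hand2, differed by -0.06 ± 0.10 (SE, limma adjusted p = 0.904), with overlapping groups.

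Of the 27 cofactors and repressors, 15 had a higher and 12 a lower mean, the median difference was 0.01, and 0 were past an unadjusted p of 0.05. Those with the smallest p were Hdac5, a class IIa deacetylase that represses MEF2 (-0.20 ± 0.09), Crebbp, a histone acetyltransferase (0.20 ± 0.09), Elk4, an ETS partner of SRF (-0.11 ± 0.05), Mapk14, the p38α kinase that phosphorylates MEF2 (0.16 ± 0.08), and Hopx, a homeodomain protein that opposes SRF (-0.27 ± 0.14, all SE). Groups were apart for Elk4 alone among these, with all mdx HRTΔIKKβ hearts below all mdx IKKβf/f hearts.

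Target genes of the factors showed no common direction. Among 27 cardiac target genes 13 had a higher and 14 a lower mean, with a median difference of 0.00, and Gja5, encoding an atrial and conduction system connexin, was the 1 past an unadjusted p of 0.05 (0.26 ± 0.08, SE). Gja5 was among the dimmest 25% of probe sets by its mean and is also on the list of atrial markers. At the other end, Myh6, Actc1, Tnni3 and Myl2 lay at the 100th percentile of brightness, with SDs of 0.01 to 0.04 within groups. These genes are also on the ventricular list. Whether probe sets this bright could show a change was not tested. Slc8a1, the sodium-calcium exchanger, had 10.48, 10.61, 9.94 and 9.81 in mdx HRTΔIKKβ hearts, against 9.47, 9.86 and 9.83 in mdx IKKβf/f hearts. Replicate 4 of mdx HRTΔIKKβ lay below 2 mdx IKKβf/f hearts, and the difference was 0.49 ± 0.21 (SE, limma adjusted p = 0.796).

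Nppa, the atrial natriuretic peptide gene and a target of GATA4, NKX2-5 and TBX5, had 13.96, 14.48, 14.65 and 14.73 in mdx HRTΔIKKβ hearts, against 14.39, 12.88 and 14.04 in mdx IKKβf/f hearts. The low heart was mdx IKKβf/f replicate 2, which was also the lowest for atrial markers, a list that holds both Nppa and Myl7. The low atrial score of that heart is thus not independent of these genes. Myl7, the atrial myosin light chain, was at 12.75 to 13.84 in mdx HRTΔIKKβ hearts, against 10.49 in that heart and 13.55 and 12.72 in the other mdx IKKβf/f hearts. The differences were 0.68 ± 0.36 for Nppa and 1.15 ± 0.66 for Myl7 (SE, limma adjusted p = 0.796 for each). Between them by p was Tnni1, slow skeletal troponin I, at -0.77 ± 0.42 (SE), with 6.75 to 7.19 in mdx HRTΔIKKβ hearts, against 8.96 in mdx IKKβf/f replicate 1, the heart with high skeletal muscle markers, and 7.06 and 7.27 in the others. Myh6, the adult cardiac myosin and itself the source of the Cre promoter, differed by -0.00 ± 0.05 (SE).

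Of 31 targets of SRF and its MRTF coactivators, 18 had a higher and 13 a lower mean, with a median difference of 0.05, and 2 were past an unadjusted p of 0.05, both higher. Ccn2, a matricellular growth factor, had 12.28, 12.55, 12.36 and 13.07 in mdx HRTΔIKKβ hearts, against 11.97, 11.45 and 11.90 in mdx IKKβf/f hearts. Egr2, an early growth response zinc finger gene, had 6.72, 6.72, 6.67 and 6.13 in mdx HRTΔIKKβ hearts, against 6.07, 5.48 and 5.96 in mdx IKKβf/f hearts. Both were apart, with differences of 0.79 ± 0.21 for Ccn2 and 0.72 ± 0.19 for Egr2 (SE, limma adjusted p = 0.79 for each). Next by p were Smtn, the smooth muscle protein smoothelin (-0.36 ± 0.16), Ccn1, a relative of Ccn2 (-0.16 ± 0.08), and Tagln2, an actin-binding protein (0.34 ± 0.18, all SE). Smtn, Acta2, Tagln, Cnn1, Myh11 and Lmod1 are also on the list of smooth muscle and pericyte markers. That list had a score of 0.57 in mdx IKKβf/f replicate 3 and -0.19 to -0.02 in the other 6 hearts. Without that heart, 9 of the 31 were past an unadjusted p of 0.05. The share of all genes past it in that fit is not given here, so this count has no background beside it. The part of the smooth muscle and pericyte markers was not tested.

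Of 13 MEF2 targets, 6 had a higher and 7 a lower mean, with a median difference of -0.05. The gene past an unadjusted p of 0.05 was Nr4a1, an orphan nuclear receptor induced through MEF2 in other cells. It had 9.73, 9.95, 10.32 and 9.42 in mdx HRTΔIKKβ hearts, against 10.96, 10.45 and 10.75 in mdx IKKβf/f hearts. Every mdx HRTΔIKKβ heart was below every mdx IKKβf/f heart, with a difference of -0.87 ± 0.21 (SE, limma adjusted p = 0.79). Klf4 (0.24), Ckm (-0.08), Xirp1 (0.32) and Jun (-0.16), the next by p, overlapped between the groups.

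**Figure D4:**
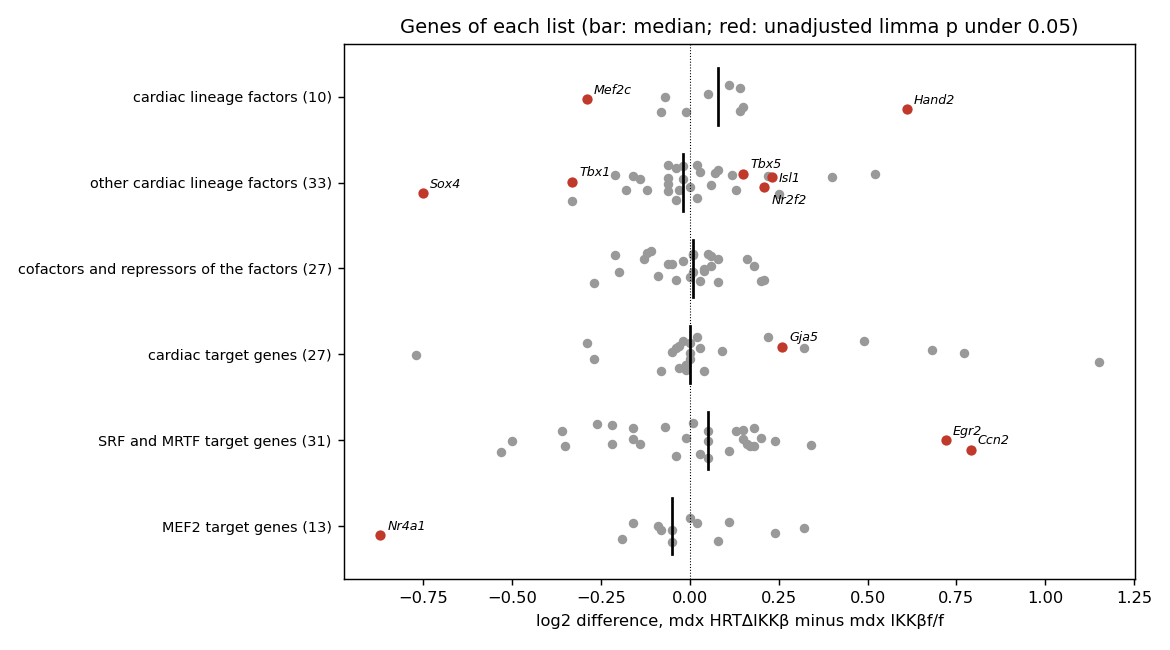
Difference in log2 RMA value, mdx HRTΔIKKβ minus mdx IKKβf/f, for every gene of the factors and of the 5 lists of related genes, with 1 point per gene at its brightest probe set and a bar at the list's median. The medians lie between -0.05 and 0.08, and the named genes have the smallest unadjusted p of their list.

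The remaining cell type markers were read in the same way, beside 3.25% of all genes past an unadjusted limma p of 0.05 and higher and 2.95% past it and lower. Endothelial and endocardial markers had a higher mean in 10 of 15 genes, 4 of them past an unadjusted p of 0.05, with scores of -0.04 to 0.21 in mdx HRTΔIKKβ hearts and -0.21 to 0.03 in mdx IKKβf/f hearts. Macrophage and monocyte markers were higher in 13 of 15 genes, with 5 past that p and higher and 1 lower, and scores of -0.13 to 0.28 in mdx HRTΔIKKβ hearts and -0.32 to -0.06 in mdx IKKβf/f hearts. Fibroblast markers, 11 of 14 with a higher mean, had 0 past that p and higher and 1 past it and lower (Fap, a membrane protease, -0.42, groups apart), with scores of -0.25 to 0.23 in mdx HRTΔIKKβ hearts and -0.31 to 0.08 in mdx IKKβf/f hearts. Smooth muscle and pericyte markers had a lower mean in 10 of 14 genes, with 1 lower past that p. Among ventricular markers 11 of 15 had a lower mean and 0 were past an unadjusted p of 0.05. Endothelial cells express Mef2c and cardiac fibroblasts express Gata4 and Gata6, and the part of these cells in the values of the factors was not tested.

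**Figure D5:**
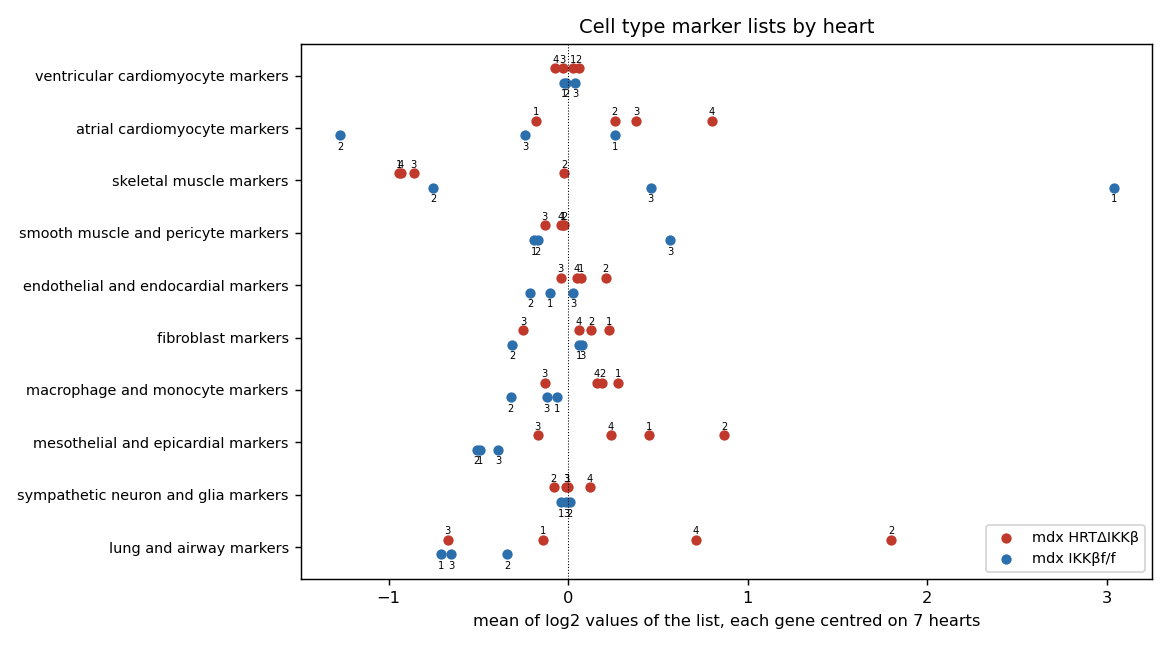
List score in each heart for markers of cell types and tissues, with mdx HRTΔIKKβ hearts drawn above mdx IKKβf/f hearts in each row. The score is the mean log2 RMA value of a list's genes after centring each on its mean over the 7 hearts. Lung and airway markers reach 1.80 in mdx HRTΔIKKβ replicate 2 and skeletal muscle markers 3.04 in mdx IKKβf/f replicate 1. Scores of the factors, from -0.12 to 0.13, are not drawn.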

How the data were processed

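Biotin-labelled cRNA from 7 whole hearts was read on Affymetrix Mouse Genome arrays, with 1 heart per array. The authors deposited log2 values computed by RMA (background correction, then quantile normalization, then 1 summary value a probe set). The submitters' processing notes name Partek and Affymetrix Expression Console, with versions not given in the sources used here. Differences of dim probe sets are compressed by RMA, and a shift common to all genes is lost in quantile normalization. Array medians ranged from 6.73 to 6.75 and the lowest correlation between arrays was 0.988. Array values carry no read depth, so the number of arrays limits the precision.

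From these values, mdx HRTΔIKKβ minus mdx IKKβf/f was fitted by lmFit and eBayes of limma 3.58.1 (R 4.3.3) to the whole table of 45037 probe sets, dim ones included. Tests were two-sided and p-values adjusted over the table by Benjamini-Hochberg. The study calls its samples biological replicates. Genes were named only from the 34945 probe sets annotated with 1 symbol, leaving 932 with several and 9160 unnamed. A gene was represented by its probe set with the highest mean, and levels of different probe sets were not compared. A 1.5-fold difference is 0.585 on the log2 scale. Probe sets were called dim when they were in the lowest 25% of mean values on the array.

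The members and the gene lists were chosen with earlier results of these data known. The lists were written from textbook knowledge, and 240 of their 248 genes were on the array. The genes named are all members, up to 5 genes with the smallest unadjusted p in each related list, dim markers and markers that set a heart apart, and Ikbkb. Hand1, Myh6, Actc1, Tnni3, Myl2, Msln, Acta2, Tagln, Cnn1, Myh11, Lmod1 and Fap were named beside these after their values were seen. Procedures were tested on simulated data. Alternatives were other normalizations and variance models, array weights, filters, the mean over probe sets, the unpaired t-test of the study's methods, the replicate number as a block and leaving out each heart. Promoter sequences are those of RefSeq (GRCm38.p6), and all 10 symbols matched RefSeq.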

Additional observations from a re-analysis of the deposited data

Results flagged for a closer look

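Among the mdx HRTΔIKKβ hearts, replicate 3 stood apart from the others for the brightest Hand2 probe set, with a log2 value of 11.42 while the other 3 hearts of the group had 10.93 to 11.01. Its gap to the nearest heart, as a share of the group's range, was 0.844, above Dixon's 95% critical value for 4 values. This was 1 of 30 member probe sets examined, and chance alone flags about 1 in 20 groups. Without this heart the Hand2 difference was 0.50 on the log2 scale (limma unadjusted p = 0.00995). Groups of 3 hearts were not examined in this way.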

How the results depend on the processing

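No member gene or probe set reached an adjusted p of 0.05 under any alternative run, and the smallest adjusted p was 0.552 with 9 other settings and 0.56 with hearts left out. Of 247 member differences under the other settings, 242 kept their direction and side of the threshold and 5 changed sign, all with values near 0. Array weights gave -0.065 for Gata4's second probe set and -0.011 for Tbx20's brightest, the second quantile normalization gave -0.017 for Gata4's second probe set, the mean over probe sets gave 0.045 for Mef2d, and the replicate block gave 0.059 for Gata4's brightest.

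Counts at an unadjusted p under 0.05 moved more. The shares over all genes and all probe sets at that p were not read for the alternatives or the left-out hearts. These counts therefore have no background beside them. Member probe sets numbered 8, but 4 by the methods' t-test and 5 with the replicate block, and member genes 2, but 1 by the methods' t-test and 3 with the mean over probe sets, which added Tbx20. With the block the member genes stayed at 2, but Mef2c (unadjusted p = 0.058) left and Myocd (0.0326) entered. Replicate 4 occurs among mdx HRTΔIKKβ hearts only, so the block takes up that heart. The member differences with the block equal those without that heart. The 5 other cardiac lineage factors became 2 among bright probe sets and 3 by the t-test. The 0 cofactors became 1 with array weights, median-centred arrays, the t-test, trended and robust variance or without cross-hybridizing probe sets, and 2 with the mean over probe sets, the replicate block or a second quantile normalization. The 1 cardiac target became 0 among bright probe sets, 2 by the t-test, with the block or without cross-hybridizing probe sets, and 3 with the mean over probe sets or trended variance. The 2 SRF and MRTF targets became 1 among bright probe sets and 3 with array weights, the mean over probe sets, the block, a second quantile normalization or without cross-hybridizing probe sets, and the 1 MEF2 target became 2 with the mean over probe sets, the t-test, the block or trended variance. The filter for bright probe sets kept those above the median mean, so Gja5, Egr2, Isl1 and Tbx1 were left out by it. The cause of the other shifts was not tested.

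With each heart left out in turn, 201 of 210 member differences kept their direction and 9 changed sign, in Gata4 (-0.088 to 0.059 for the brightest and -0.069 to 0.071 for the second probe set), Tbx20 (-0.045 to 0.122 for the brightest) and Mef2a (-0.008 to 0.155 for the fifth). Counts ranged from 0 to 1 over all probe sets at an adjusted p of 0.05 (1 without mdx HRTΔIKKβ replicate 1), from 4 to 8 for member probe sets (4 without mdx IKKβf/f replicate 1), from 1 to 2 for member genes, from 2 to 5 for other factors, from 0 to 2 for cofactors, from 1 to 3 for cardiac targets, from 2 to 9 for SRF and MRTF targets (9 without mdx IKKβf/f replicate 3) and from 1 to 2 for MEF2 targets. Replicate numbers 1 to 3 occur in both groups but pair no hearts in the labels, the deviations of same-numbered hearts correlated at -0.08, -0.38 and -0.04, and 0 hearts matched their own number best, so the block is no paired analysis. With 4 and 3 arrays of whole tissue, differences of the size seen in most members lie within the spread between hearts.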
